A study of Mus musculus with 29 samples.

Results

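The comparison described here sets keratinocyte cultures given doxycycline (Dox) for 24 h against untreated cultures of the same time. Its members are the arrays titled as 24 h with Dox and 24 h without it, 3 of each, which makes 6 of the 29 arrays of the study. The study followed cultures with and without Dox at 6, 12, 24, 48 and 72 h on Illumina bead arrays, in which labelled RNA is captured by probes on beads and read as brightness. All cultures, treated and untreated, were primary tail keratinocytes (the epithelial cells of the epidermis) from C57BL/6 mice with the c-FostetON transgene, a c-Fos gene switched on by Dox. The labels state the Dox concentration once as 1 µg/ml and once as 1 µg/L, and which of them applies is unknown here. Every culture carried the transgene, so effects of Dox and of c-Fos cannot be told apart. The labels name neither the promoter that drives the transgene nor the age of the mice, and nothing says that replicates came from separate animals or cultures. The p-values therefore measure the spread between arrays of the same group, pooled over all groups of the study, which may be technical. Which transcripts differed with Dox after 24 h is the question of the comparison.

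c-Fos is the product of the Fos gene and a subunit of AP-1, a transcription factor formed when a Fos protein pairs with a Jun protein. AP-1 binds the DNA motif TGAGTCA, or TGACTCA on the opposite strand, and is known for driving genes of matrix breakdown, wound repair and keratinocyte differentiation. The Fos gene itself belongs to the immediate-early genes, which are transcribed within minutes of a stimulus and then shut off, in part by their own products.

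Values are normalized log2 intensities, and a difference is the mean of the Dox arrays minus the mean of the untreated arrays, so that 1 stands for a doubling. A gene was called when its adjusted p (limma, Benjamini-Hochberg over all kept probes) was under 0.05, with no minimum for the size. Median signals of the 6 arrays lay between 54.5 and 64.1, with 34.0 to 37.0% of their probes detected. The number of arrays limits the precision of every value.

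The 6 arrays did not all share the same background. The authors' normalized values have 1 distribution within each of 4 sets of arrays, which the labels do not name. The 3 untreated arrays and Dox replicate 1 lie in 1 set, and Dox replicates 2 and 3 lie in the set that holds the 48 h arrays. Within a set the comparison is therefore 1 Dox array against 3 untreated arrays. In the authors' values the 90th percentile was 8.38 to 8.39 on the untreated arrays and 8.37 on Dox replicate 1. It was 8.11 and 8.09 on Dox replicates 2 and 3. A value given as within the array set is that of Dox replicate 1 alone against the untreated mean, from the fit with the set as a fixed block. Its p takes the spread from the other groups and assumes that this lone array varies as they do. Among the 24 h arrays untreated replicate 1 stood apart in the difference between a pair of probes for Actb. That difference was 0.91 on replicate 1, -4.12 and -3.39 on untreated replicates 2 and 3, and between -3.24 and -2.83 on the Dox arrays. It was positive as well on the untreated arrays of 6 h (3.95 and 4.59) and 12 h (1.63 and 1.10). On the untreated arrays of 48 and 72 h and on all Dox arrays of the study it was negative. The pair was picked from 5 kept Actb probes as the one whose difference varied most over the arrays of the study. The part of untreated replicate 1 and of the sets in single results was not tested beyond the values given with them.

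The labelled cell type was checked with marker genes. Of 11 keratinocyte markers on the array 9 were detected on all 6 arrays and only Krt15 on none. Their summed level was 15.7 to 15.8 on the untreated arrays and 15.6 to 15.7 on the Dox arrays. Of 13 fibroblast markers 10 were undetected on all 6 arrays, Col1a1, Col3a1, Dcn and Pdgfra among them. Of the markers of T cells 5 of 6 were undetected, of endothelium 5 of 7, of Langerhans cells and macrophages 8 of 10, of melanocytes 3 of 7, and of hair follicle 9 of 13. Of 6 markers of Merkel cells and neural crest 4 were undetected, Krt20 and Atoh1 included, and the sum of all 6 ran from 7.05 to 7.08 untreated and from 7.14 to 7.16 with Dox. The sum of the hair follicle markers lay apart the other way, at 9.09 to 9.21 untreated and 9.03 to 9.07 with Dox. The sums of the other lists overlapped between the groups, and the part of these cell types in the results was not tested.

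At 24 h 239 of 8271 measured genes were called, which is 2.89%. Of these 118 were higher with Dox (1.43% of genes) and 121 lower (1.46%). Most differences were modest. The median size of a called difference was 0.57 on the log2 scale, the smallest 0.35, and 15 genes differed at least 2-fold, 10 of them higher and 5 lower. The median difference of all genes was -0.01. Among the called genes 238 showed no overlap between the 3 Dox and the 3 untreated arrays, with Shmt1 as the exception, where 1 Dox and 1 untreated array crossed. No overlap also occurred in 21.3% of all measured genes. The largest rises and falls named here were picked among genes without overlap, so their separation adds no support.

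How many genes passed depended on single arrays. Leaving out untreated replicate 1 left 116 calls (1.4% of genes), 68 of them higher (0.822%) and 48 lower (0.58%). Of the 116, 108 were among the 239. Without untreated replicate 2 or 3 there were 172 and 132 calls, and without Dox replicate 1, 2 or 3 there were 270, 110 and 112. In all 6 of these fits 77 of the 239 genes were called, 48 higher and 29 lower, and each of the 239 kept its direction. With the array set as a fixed block 40 genes were called (0.484%), 38 of them among the 239, so that 201 lost the call. The called genes described here without a value within the array set are among the 201. In the fit with that block each of the 239 kept its direction, and the median SE over genes was 0.18, against 0.13 without the block. Dox replicate 1 is part of both fits, so the kept directions are no independent support. The authors' own normalized values gave 1126 calls with another balance, 414 higher (5.01%) and 712 lower (8.61%). The 239 genes kept their direction in those values and 144 were called, but the differences were smaller, with a median ratio of 0.37 to those given here and 175 of the 239 smaller by over 1.5 times. With the array set as a block in those values, an alternative chosen after seeing the data, 84 were called, 51 higher and 33 lower. Of 71 called genes with a further kept probe 56 (78.9%) had the same sign in it.

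**Figure D1:**
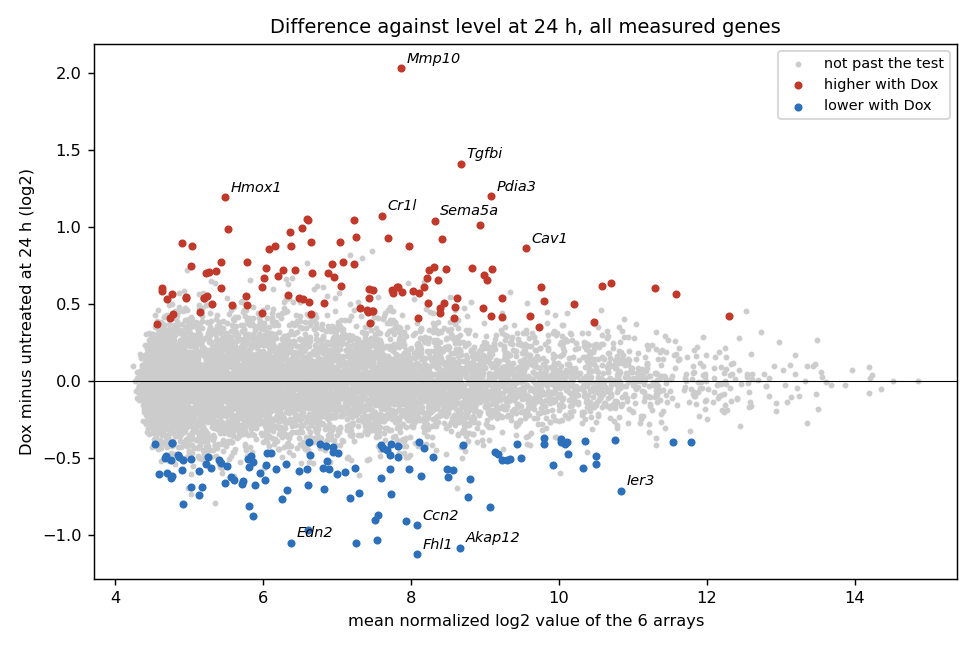
Difference between Dox and untreated arrays at 24 h (log2, vertical) against the mean normalized log2 value of the 6 arrays (horizontal), 1 point per measured gene. The 118 genes higher with Dox are red, the 121 lower ones blue and the genes not past the test grey. Mmp10 stands alone at 2.03, and the other called genes lie between -1.13 and 1.41.

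The transcript of the transgene's own gene was lower on the arrays labelled Dox. The probe for Fos read 6.85, 6.51 and 6.58 on the untreated arrays and 5.83, 5.74 and 6.07 on the Dox arrays. Every Dox array was below every untreated array, and the difference was -0.76 (SE 0.16, n = 3 against 3, adjusted p = 0.00547). Dox replicate 1 alone lay 0.82 below the untreated mean within its array set, where the call was lost (adjusted p = 0.125). Without untreated replicate 1 the difference was -0.66 (adjusted p = 0.0538). Where this probe lies on the transcript of the transgene is unknown here, so this probe is no check of the labels, on which all directions rest.

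Of 9 measured AP-1 genes, Fos among them, 4 fell and 1 rose, where 2.89% of all genes were called. Their median was -0.41, against -0.01 for all genes, and -0.02 with the authors' normalized values, where 3 fell and none rose. The distribution of those values differed between the array sets. Atf3, a stress-induced partner of Jun proteins, read 5.91, 6.44 and 6.34 untreated and 5.43, 5.70 and 5.55 with Dox. The 2 groups were apart, with a difference of -0.67 (SE 0.12, adjusted p = 0.00129) that was called in every fit leaving out 1 array. Within the array set it was -0.81 (adjusted p = 0.0250). Junb, a Jun protein, fell from 10.46, 10.02 and 10.09 to 9.76, 9.58 and 9.59. Its difference of -0.55 (adjusted p = 0.0292) lost the call when untreated replicate 1 or 3 or Dox replicate 2 or 3 was left out, with an adjusted p of up to 0.204.

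Jdp2, which dimerizes with Jun and represses AP-1, was not detected on any Dox array and was at least 1.14-fold lower there. Its call ended without untreated replicate 3 (adjusted p = 0.0646). Fosl1, the gene of the Fos relative Fra-1, moved the other way, from 7.12, 7.33 and 7.13 to 7.56, 7.74 and 7.62, a rise of 0.45 (adjusted p = 0.0355). It is named after its values were seen, and its call ended without untreated replicate 1 or 3 or Dox replicate 2 or 3 (adjusted p up to 0.157). Without untreated replicate 1 the list held 2 falls and no rise, Atf3 and Jdp2 being the falls, and with the array set as a block 1 fall.

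Of 15 further immediate-early genes 1 fell, none rose and the median was -0.22. The one that fell was Ier3, a rapidly induced regulator of cell survival. Its values were 11.20, 11.12 and 11.27 untreated and 10.63, 10.43 and 10.39 with Dox. The groups were well apart at -0.71 (SE 0.09, adjusted p = 2.65e-05), and the value within the array set was -0.57 (adjusted p = 0.0333). Of 13 genes of MAP kinase feedback, which damp the signal that induces Fos, Dusp10 alone was called, 0.46 higher (adjusted p = 0.0255). Only the fit without untreated replicate 1 kept that call among those leaving out 1 array (adjusted p up to 0.113 in the others).

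The largest difference of the comparison was in Mmp10, the gene of stromelysin-2, a secreted metalloproteinase that cleaves matrix proteins. It read 6.65, 7.20 and 6.70 on the untreated arrays and 8.99, 8.81 and 8.83 on the Dox arrays. No array of either group came near the other group, and the difference was 2.03 (SE 0.15, a 4.08-fold higher level, adjusted p = 3.16e-09). Within the array set it was 2.14 (adjusted p = 6.38e-06), and with the authors' normalized values 1.17 (adjusted p = 2.41e-05). The gene has 1 kept probe. Its place among the changed genes was known from earlier results on these data.

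Of 15 measured metalloproteinases and their inhibitors 3 rose and 1 fell, with a median of 0.07, where 2.89% of all genes were called. Timp1, a secreted inhibitor of metalloproteinases, went from 6.18, 5.91 and 5.65 to 6.93, 6.57 and 6.39. All Dox arrays were above all untreated arrays, by 0.72 on average (SE 0.14, adjusted p = 0.00295) and by 1.01 within the array set (adjusted p = 0.00489). Its other probe gave 0.88. Mmp13, a collagenase, was 0.56 higher (adjusted p = 0.0479), and this call ended without any of the arrays but untreated replicate 2 (adjusted p up to 0.220). Timp3, an inhibitor bound to the matrix, was 0.60 lower by the called probe and 0.11 lower by its other probe. Its adjusted p of 0.0321 rose to 0.150 without untreated replicate 3 and also passed 0.05 without untreated replicate 2 or Dox replicate 1 or 2.

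Plau, the gene of urokinase, which activates plasminogen at the cell surface, was the 1 gene called of 6 in the plasminogen system. It read 6.98, 8.04 and 7.60 untreated and 8.31, 8.47 and 8.47 with Dox. The untreated arrays spread widely and untreated replicate 1 was the lowest. The difference of 0.88 (SE 0.20, adjusted p = 0.0131) lost its call without untreated replicate 1 (adjusted p = 0.133) and without Dox replicate 2 or 3.

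The stretch of DNA before each gene's start was searched for the motif that AP-1 binds. RefSeq windows of 300 bases (build GRCm38.p6, 250 before to 50 after a start) that held TGAGTCA or TGACTCA, which are the same motif on the 2 strands, were found for 13 of the 87 risen genes that had a window (14.9%). The motif was present for 4 of 89 fallen genes (4.49%), for 348 of 6749 measured genes (5.16%) and in 1709 of all 32851 windows (5.20%). A cyclic AMP response element, TGACGTCA, was present for 2.30% of the risen, 4.49% of the fallen and 3.70% of the measured genes. These shares are descriptions, and a match is not a binding site. The windows of 4 risen genes are printed because they show where the motif sits in the proteases Mmp10 and Mmp13, in the epidermal lipase Lipn and in the cornified envelope gene Sprr2k. Capitals mark the motif, and its first base lies at -63 from the start in Mmp10, -35 in Mmp13, -148 in Lipn, and -196 and -182 in Sprr2k.
Mmp10, chr9:7502092-7502391, plus strand: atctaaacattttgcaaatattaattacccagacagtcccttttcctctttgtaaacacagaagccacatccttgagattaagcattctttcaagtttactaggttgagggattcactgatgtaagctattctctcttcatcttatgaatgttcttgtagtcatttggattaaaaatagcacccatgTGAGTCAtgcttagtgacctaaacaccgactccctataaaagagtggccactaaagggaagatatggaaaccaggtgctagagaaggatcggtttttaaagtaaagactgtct
Mmp13, chr9:7272264-7272563, plus strand: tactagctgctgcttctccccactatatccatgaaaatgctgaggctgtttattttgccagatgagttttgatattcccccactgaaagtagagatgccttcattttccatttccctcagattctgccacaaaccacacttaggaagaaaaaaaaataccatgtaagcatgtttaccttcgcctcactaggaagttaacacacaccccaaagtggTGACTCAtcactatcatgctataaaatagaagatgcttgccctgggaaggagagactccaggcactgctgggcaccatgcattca
Lipn, chr19:34067108-34067407, plus strand: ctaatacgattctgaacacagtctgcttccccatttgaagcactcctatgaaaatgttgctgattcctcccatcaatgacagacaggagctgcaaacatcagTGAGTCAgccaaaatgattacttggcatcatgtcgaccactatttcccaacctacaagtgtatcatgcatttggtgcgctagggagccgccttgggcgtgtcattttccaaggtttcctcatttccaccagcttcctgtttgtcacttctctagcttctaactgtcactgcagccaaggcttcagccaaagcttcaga
Sprr2k, chr3:92432332-92432631, plus strand: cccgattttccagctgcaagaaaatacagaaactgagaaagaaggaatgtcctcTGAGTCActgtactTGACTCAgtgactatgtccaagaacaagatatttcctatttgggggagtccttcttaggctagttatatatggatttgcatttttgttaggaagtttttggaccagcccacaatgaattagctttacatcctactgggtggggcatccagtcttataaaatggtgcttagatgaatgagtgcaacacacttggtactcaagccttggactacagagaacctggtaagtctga

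Tgfbi, a secreted adhesion protein induced by TGF-beta, read 7.88, 8.05 and 8.0 untreated and 9.24, 9.47 and 9.44 with Dox. The groups were far apart, with a difference of 1.41 (SE 0.12, adjusted p = 8.41e-08), 1.00 in its other probe and 1.27 within the array set (adjusted p = 0.000309). Hspg2, the gene of the basement membrane proteoglycan perlecan, rose by 0.68 (SE 0.11, adjusted p = 0.000753) and by 0.74 within the array set (adjusted p = 0.0289). It was the only gene called of 20 in the syndecan, Cd44 and heparan sulphate list. Emp3, a small membrane protein, rose by 0.99 (SE 0.11, adjusted p = 2.48e-06) above untreated values of 5.98 to 6.11, and by 1.04 within the array set (adjusted p = 0.00122).

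Ccn2, the gene of connective tissue growth factor and a target of the YAP coactivator, changed the opposite way to Tgfbi. Its values were 8.71, 8.49 and 8.46 untreated and 7.53, 7.68 and 7.65 with Dox. Every Dox array was lower, by 0.94 in the mean (a log2 difference of -0.94, SE 0.14, adjusted p = 0.000178) and by 1.03 within the array set (adjusted p = 0.0134). Tnc, the gene of the matrix protein tenascin-C, fell by 0.58 (SE 0.11, adjusted p = 0.00192), while its 4 other probes gave values from -0.54 to 0.19. Its call was lost within the set (-0.54, adjusted p = 0.173). Tgfbi, Ccn2 and Tnc are the genes called of 10 in the YAP-responsive and matricellular list, whose median was -0.14. None of 18 measured genes of the TGF-beta pathway was called (median -0.05).

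**Figure D2:**
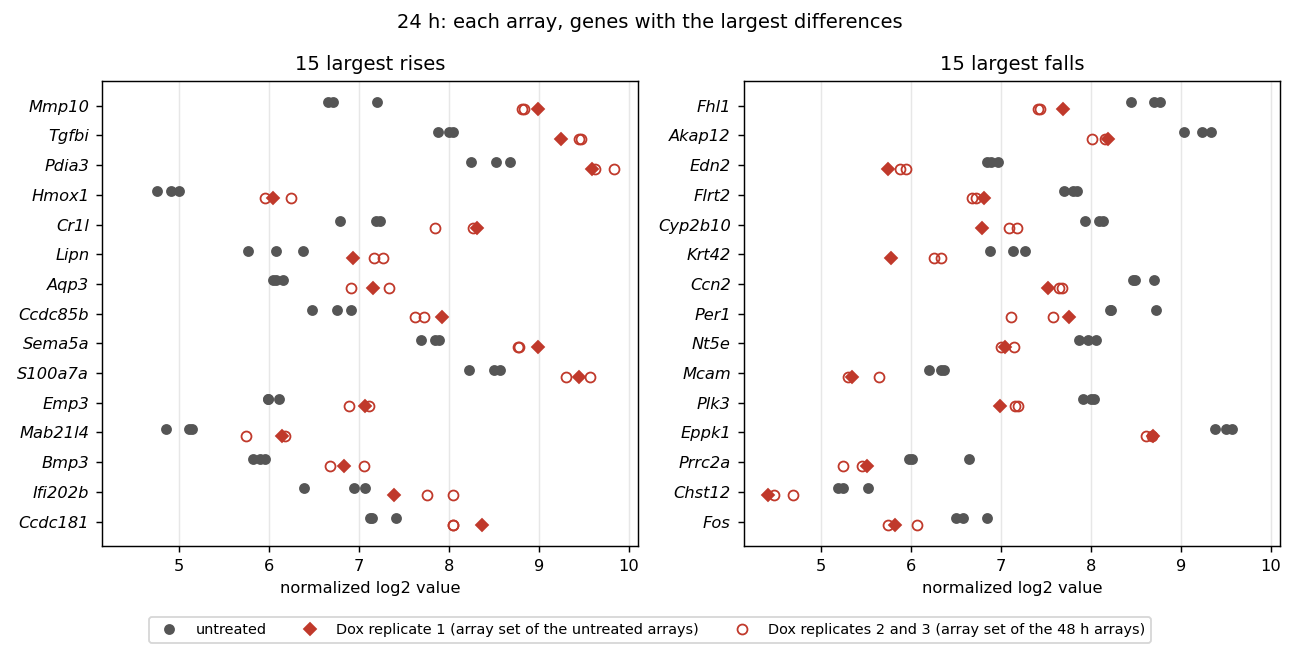
Normalized log2 values (horizontal) on each of the 6 arrays for the 15 largest rises (left) and 15 largest falls (right) among called genes without overlap, ordered by size. Grey points are untreated arrays, red diamonds Dox replicate 1 in the same array set, and open red circles Dox replicates 2 and 3 in the other set. For Mmp10 all Dox arrays lie between 8.81 and 8.99.

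Calls among secreted and cornified envelope genes of the epidermis were on single family members, where 2.89% of all genes were called. S100a7a, a member of the S100 calcium-binding proteins that is secreted in inflamed skin, read 8.22, 8.50 and 8.57 untreated and 9.45, 9.30 and 9.57 with Dox. The groups did not touch, and the difference was 1.01 (SE 0.11, adjusted p = 2.67e-06) and 1.02 within the array set (adjusted p = 0.00205). It was the only one called of 12 S100 genes (median 0.15). Like Mmp10 it was a known result of these data. Among 11 genes of small proline-rich proteins, which are cross-linked into the cornified envelope, Sprr2k alone was called. It went from 7.11, 6.5 and 6.48 to 7.35, 7.67 and 7.38, a rise of 0.77 (SE 0.15, adjusted p = 0.00307), with untreated replicate 1 the closest to the Dox arrays. The call was lost within the array set (0.66, adjusted p = 0.249). Probes of the Sprr2 family may share signal between close copies. Lipn, a lipase known in humans from late epidermal differentiation, read 5.76, 6.38 and 6.08 untreated and 6.93, 7.26 and 7.16 with Dox. Its groups were apart by 1.05 (SE 0.16, adjusted p = 0.000178) and by 0.86 within the array set, where the call was lost (adjusted p = 0.0851).

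None of 26 measured genes of the cornified envelope and late differentiation was called, with a median of 0.04. The nearest to a call were Ppl, the gene of periplakin, at 0.46 (adjusted p = 0.0675) and Tgm1, the gene of the cross-linking transglutaminase, at -0.41 (adjusted p = 0.116). Of 16 keratins only Krt42, a type I keratin, was called. It read 7.27, 7.13 and 6.88 untreated and 5.78, 6.34 and 6.26 with Dox, and Dox replicate 1 was the lowest. The difference was -0.97 (SE 0.15, adjusted p = 0.000414) and -1.31 within the array set (adjusted p = 0.00122).

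Calls in adhesion structures were on single genes as well, where 2.89% of all genes were called. Pkp3, a plaque protein of desmosomes, rose by 0.54 (adjusted p = 0.0157) as the 1 called gene of 10, and Itga6, the alpha-6 integrin chain of hemidesmosomes, rose by 0.58 (adjusted p = 0.0332) as the 1 of 11 in basal adhesion. The call on Pkp3 ended without untreated replicate 2 or Dox replicate 2 or 3 (adjusted p up to 0.0841), and that on Itga6 ended without any array but Dox replicate 1 (adjusted p up to 0.131). None of 15 genes of tight, gap and adherens junctions was called. Eppk1, the gene of epiplakin, which binds keratin filaments, was clearer. It fell from 9.57, 9.50 and 9.39 to 8.69, 8.61 and 8.68, with no array between the groups, by 0.82 (SE 0.12, adjusted p = 0.000204) and by 0.79 within the array set (adjusted p = 0.0250). Elf3, an epithelial transcription factor and the only one called of 17 in its list, was 0.44 higher at a level of 4.86 to 5.02 untreated. Its other probes gave -0.18 and -0.27, and every fit leaving out 1 array lost the call (adjusted p up to 0.125).

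Sema5a, a membrane semaphorin that guides axons, read 7.84, 7.88 and 7.69 untreated and 8.98, 8.76 and 8.78 with Dox. The separation was about the same on each Dox array, with a difference of 1.04 (SE 0.11, adjusted p = 1.42e-06), 1.18 in its other probe and 1.18 within the array set (adjusted p = 0.000235). Flrt2, a membrane protein that binds the guidance receptor Unc5d, fell from 7.81, 7.84 and 7.71 to 6.82, 6.72 and 6.67. Its difference of -1.05 (SE 0.12, adjusted p = 2.48e-06) was -0.97 within the array set (adjusted p = 0.00375). Sema4b rose by 0.48 (adjusted p = 0.0327) and lost its call without any array but untreated replicate 2 (adjusted p up to 0.140). These are the 3 called genes of 19 guidance molecules.

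Bmp3, a ligand of the BMP family, rose by 0.96 (SE 0.12, adjusted p = 2.30e-05) and by 0.94 within the array set (adjusted p = 0.0102). Of 8 measured genes of the IGF system 1 rose, Igfbp3, and 1 fell, Igf2r. The difference for Igf2r was -0.57 (adjusted p = 0.0404), and this call ended without any array but untreated replicate 2 (adjusted p up to 0.159). Igfbp3, which binds insulin-like growth factors in the extracellular space, read 7.98, 7.96 and 7.96 untreated and 9.06, 8.75 and 8.84 with Dox. Its untreated values were almost equal, and the rise was 0.92 (SE 0.15, adjusted p = 0.000454) and 1.09 within the array set (adjusted p = 0.00416). Cr1l, the rodent membrane regulator of complement known as Crry, rose by 1.07 (SE 0.14, adjusted p = 4.64e-05), by 0.70 in its other probe and by 1.24 within the array set (adjusted p = 0.00122). It was the 1 gene called of 6 for complement. Aqp3, the water and glycerol channel of keratinocytes, was 1.04 higher, with 6.07, 6.15 and 6.04 untreated and 7.15, 7.33 and 6.91 with Dox. Although its groups were apart, the adjusted p of 0.0188 became 0.0724 without untreated replicate 1, and the call also ended without untreated replicate 3 or Dox replicate 2 (adjusted p up to 0.0915). None of 5 EGF receptor and ligand genes and none of 10 Notch genes was called.

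Among 9 measured genes of endothelins and caveolae, the small pits of the plasma membrane, 3 caveolar genes rose and 2 endothelin genes fell, with a median of 0.19. Over all genes 2.89% were called. Cav1, the gene of the coat protein caveolin-1, read 8.97, 9.08 and 9.31 untreated and from 9.65 to 10.30 with Dox. The Dox arrays were all higher, but Dox replicate 1 was the nearest to the untreated arrays, with 0.86 in all (SE 0.14, adjusted p = 0.000573) and 0.53 within the array set (adjusted p = 0.313). Cavin3, a coat adaptor, rose by 0.69 (SE 0.10, adjusted p = 0.000178) and by 0.72 in its other probe, with a lost call within the array set (0.63, adjusted p = 0.0552). Cav2, named after its values were seen, rose by 0.90 (adjusted p = 0.0251), without a call when untreated replicate 1 or 3 or Dox replicate 2 or 3 was left out (adjusted p up to 0.163).

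Edn2, the gene of the peptide endothelin-2, read 6.85, 6.89 and 6.97 untreated and 5.74, 5.88 and 5.95 with Dox. The spread in each group was small next to the difference of -1.05 (SE 0.12, adjusted p = 2.47e-06), which was -1.16 within the array set (adjusted p = 0.000447). Ece1, an enzyme that processes endothelins, fell by 0.64 (SE 0.11, adjusted p = 0.00125), while its other probe gave 0.10. Its call was lost within the array set (-0.51, adjusted p = 0.199).

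The largest falls included proteins of the contractile cytoskeleton and of signal scaffolds. Fhl1, a LIM-domain protein abundant in muscle, fell the most. It read 8.45, 8.77 and 8.71 untreated and 7.70, 7.42 and 7.44 with Dox, so that the groups were clearly apart. The difference was -1.13 (SE 0.11, adjusted p = 3.26e-07), -1.07 in its other probe and -0.95 within the array set (adjusted p = 0.00122). Akap12, a scaffold for protein kinase A and a target of Src signalling, fell from 9.33, 9.04 and 9.24 to 8.19, 8.16 and 8.02. Its groups did not touch at -1.08 (SE 0.12, adjusted p = 2.66e-06) and -1.02 within the array set (adjusted p = 0.00158). Acta2, the smooth muscle actin gene, was the third of 22 contractile genes to be called, at -0.48 (adjusted p = 0.0255). Its 3 other probes gave -0.37 to -0.49, and each fit leaving out 1 array lost the call (adjusted p up to 0.0978). No contractile gene rose, and the list's median was -0.11. Over all genes 1.46% were called lower.

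Cyp2b10, a cytochrome P450 of foreign-compound metabolism, was -1.03 by its called probe (SE 0.11, adjusted p = 7.04e-07) and 0.03 by its other probe, so the probes for this gene disagree. Within the array set the called probe gave -1.26 (adjusted p = 2.04e-05). Nt5e, the gene of CD73, which forms adenosine outside the cell, was likewise -0.90 and -0.15 by its probes. Mcam, the adhesion molecule CD146, was -0.87 by the called probe and -0.24 by each of its others. Within the array set the called probes gave -0.92 for Nt5e (adjusted p = 0.00238) and -0.96 for Mcam (adjusted p = 0.00725). Plk3, a polo-like kinase of stress responses, has 1 kept probe and read 7.91, 8.04 and 8.0 untreated and 6.99, 7.19 and 7.16 with Dox. Its groups were apart by 0.87 (a log2 difference of -0.87, SE 0.12, adjusted p = 0.000102), and by 0.99 within the array set (a log2 difference of -0.99, adjusted p = 0.00489).

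Per1, a repressor of the circadian clock, read 8.73, 8.23 and 8.22 untreated and 7.76, 7.12 and 7.59 with Dox. Both groups spread widely, with a difference of -0.91 (SE 0.17, adjusted p = 0.00246), -0.67 in its other probe and -0.64 within the array set (adjusted p = 0.336). It was the only clock gene called of 14. Prrc2a fell by 0.81 (adjusted p = 0.00547), with untreated replicate 1 the highest array at 6.64 and a lost call without it (adjusted p = 0.0706). Chst12, a sulphotransferase for chondroitin, was undetected on all Dox arrays and at least 1.35-fold lower there, with a call that ended without untreated replicate 2 (adjusted p = 0.0565).

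Among stress genes the calls were on a few enzymes. Hmox1, the gene of heme oxygenase, which breaks down heme and is induced by oxidants, read 5.00, 4.75 and 4.91 untreated and 6.04, 5.95 and 6.24 with Dox. Each Dox array was about 1 higher at a low level of signal, with a difference of 1.19 (SE 0.22, adjusted p = 0.00264) and 1.15 within the array set, where the call was lost (adjusted p = 0.165). Mgst3, a microsomal glutathione transferase, rose by 0.72 (SE 0.11, adjusted p = 0.000148), by 0.46 in its other probe and by 0.68 within the array set (adjusted p = 0.0470). Osgin1, an oxidative stress gene, was 0.48 lower (adjusted p = 0.0496) and lost the call without any 1 array (adjusted p up to 0.159). The list of oxidative stress and glutathione held 2 rises and 1 fall in 39 genes (median -0.03).

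Pdia3, a disulphide isomerase of the endoplasmic reticulum, read 8.25, 8.53 and 8.68 untreated and 9.58, 9.83 and 9.62 with Dox. It was 1.20 higher (SE 0.26, adjusted p = 0.0108) but lost the call without untreated replicate 1 (adjusted p = 0.0736) or Dox replicate 2 (adjusted p = 0.0584). The other 20 genes of the chaperone and unfolded protein response list were not called. Ddit4, which restrains the growth kinase mTOR, fell by 0.57 (adjusted p = 0.0230) as the only 1 of 36 in the integrated stress response, and lost the call without untreated replicate 1 or 2 or Dox replicate 2 or 3 (adjusted p up to 0.152). None of 21 heat shock chaperones and none of 13 interferon response genes was called.

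Of 25 p53 targets and Bcl2 family genes 3 fell and none rose, with a median of -0.18, where 1.46% of all genes were called lower. Plk3 is one of the 3. Trp53inp1, a p53 cofactor, fell by 0.63 (SE 0.11, adjusted p = 0.00182), with -0.06 in its other probe and a lost call within the array set (-0.60, adjusted p = 0.108). Tnfrsf10b, a death receptor, was 0.74 lower (adjusted p = 0.0474), its 3 other probes gave -0.21 to 0.14, and the call ended without untreated replicate 1 (adjusted p = 0.256) or 3 or Dox replicate 2 or 3. No gene was called among 24 cell cycle regulators (median -0.05) and 18 mitosis genes (median -0.14). Of 32 DNA replication genes, with a median of -0.13, Tk1, the thymidine kinase of dividing cells, alone was called. It fell by 0.50 (adjusted p = 0.0219), its other probes gave -0.37 and -0.43, and its call ended without untreated replicate 1 or 2 or Dox replicate 2 or 3 (adjusted p up to 0.109).

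Cytokines moved in both directions. Of 19 epidermal cytokines 3 rose and 3 fell, where 2.89% of all genes were called. Without untreated replicate 1 only 1 rise remained past the test. Tnfsf9, a costimulatory ligand of the TNF family, rose by 0.54 (SE 0.11, adjusted p = 0.00467) at a low level, from 4.57 to 4.82 untreated to between 5.21 and 5.24 with Dox, and it is the one that passed without untreated replicate 1 (adjusted p = 0.0274). Within the array set its call was lost (0.52, adjusted p = 0.204). Il24, an epidermal cytokine of the IL-10 family, was 0.50 higher (adjusted p = 0.0253) and Il1a, a keratinocyte alarmin, 0.50 lower (adjusted p = 0.0252). Il7, a lymphocyte growth factor, was 0.68 higher (adjusted p = 0.0197). These 3 calls ended without untreated replicate 1 or 3 or Dox replicate 2, and each without further arrays, with an adjusted p of up to 0.138.

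Of 7 chemokines 2 fell and none rose, where 1.46% of all genes were called lower. Cxcl1, which attracts neutrophils, read 9.53, 9.61 and 9.62 untreated and 9.07, 9.05 and 9.13 with Dox. The groups were tight and apart by 0.50 (a log2 difference of -0.50, SE 0.10, adjusted p = 0.00467). The call was lost within the array set (-0.52, adjusted p = 0.170). Cxcl12 was 0.59 lower by the called probe and gave 0.21 and -0.26 in its others, with a call that ended without untreated replicate 1 (adjusted p = 0.104) or Dox replicate 2. None of 11 antimicrobial proteins and none of 12 kallikrein genes was called.

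Metabolic and RNA-processing lists held 1 or 2 calls each, against 2.89% of all genes called. Hk2, which starts glycolysis, was 0.41 lower (adjusted p = 0.0179) and with Ddit4 made the 2 falls of 24 hypoxia and glycolysis genes. Nsdhl, an enzyme of cholesterol synthesis, was 0.46 higher (adjusted p = 0.0252) as the 1 call of 21. Of 28 genes of ceramides and the lipid barrier, the ceramidase gene Acer1 was 0.54 higher (adjusted p = 0.0323) and Dgat2, which makes triglycerides, 0.57 lower (adjusted p = 0.0183). Of 35 splicing genes Srsf10 was 0.49 lower, with 0.29 and -0.08 in its other probes, and of 27 translation factors Etf1 was 0.39 lower and Eif4b higher. Leaving out 1 array ended each of these calls at least in some fits, with an adjusted p of up to 0.0924 for Hk2, 0.139 for Nsdhl, 0.182 for Acer1, 0.164 for Dgat2, 0.150 for Srsf10, 0.207 for Etf1 and 0.0849 for Eif4b. Without untreated replicate 1 the adjusted p was 0.0745 for Hk2, 0.139 for Nsdhl, 0.0642 for Acer1, 0.164 for Dgat2, 0.0196 for Srsf10, 0.0978 for Etf1 and 0.0581 for Eif4b.

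Across the 44 gene lists 33 held at least 1 called gene, and 63 of their 743 measured members were called (8.48%, against 2.89% of all genes). The lists were chosen with results of these data known, so nothing is read from that share. In 11 of them the calls were rises alone, in 12 falls alone and in 10 both. List medians ran from -0.41 for the AP-1 subunits to 0.23 for the small proline-rich proteins. With the authors' normalized values they ran from -0.32 for translation factors to 0.07 for complement. For translation factors the median was -0.07 in the values used here and -0.05 with the array set as a block. The distribution of the authors' values differed between the array sets, and the part of this in their medians was not tested. Of 12 reference genes, which serve as an internal control, 1 was called, the transferrin receptor gene Tfrc, which fell by 0.57 (SE 0.10, adjusted p = 0.00129) and by 0.54 in its other probe. This call was lost within the array set (adjusted p = 0.133).

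**Figure D3:**
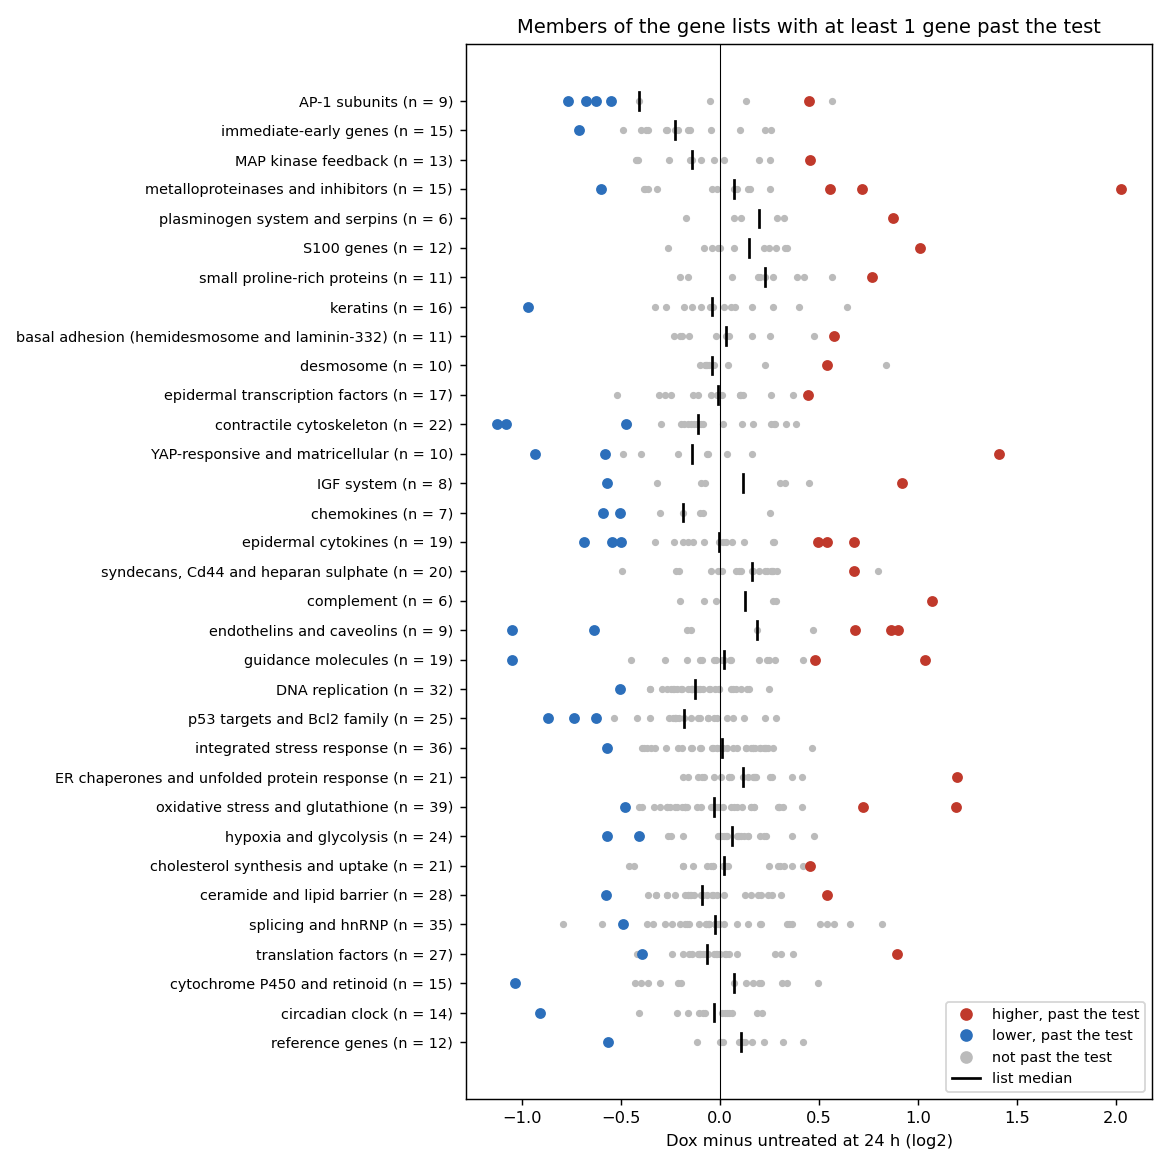
Difference between Dox and untreated arrays at 24 h (log2, horizontal) for every measured member of the 33 gene lists that hold a called gene, 1 row per list. Red points are called higher, blue points called lower, grey points not called, and the black bar is the list's median. The AP-1 subunits have the lowest median, -0.41, and Mmp10 is the point farthest right, at 2.03.

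The 24 h differences were set beside those of 12, 48 and 72 h. The 6 h calls were not counted against them. Some genes had the other sign at 6 h: Il1a was 1.09 (adjusted p = 1.20e-06), Sema5a -0.50 (adjusted p = 0.00376) and Mmp13 -0.51 (adjusted p = 0.0293). Igfbp3 (2.35), Cr1l (1.92) and S100a7a (0.55) had their 24 h direction at 6 h. These genes were picked after their values were seen, and their 6 h and 24 h effects were not tested against each other. At 12 h 114 genes were called (1.38% of those measured), and 42 genes were called at both times, which is 17.6% of the 24 h calls and 36.8% of the 12 h calls. At 48 h 214 were called (2.59%), and 90 were shared, 37.7% of the 24 h calls and 42.1% of the 48 h calls. At 72 h 517 were called (6.25%), and 105 were shared, 43.9% of the 24 h calls and 20.3% of the 72 h calls. All shared genes had the same direction at 12 h and at 48 h, and 97 of 105 did at 72 h. The groups at different times share no arrays, but those of 12 and 48 h share array sets with those of 24 h. The groups were also unequal. At 12 h there were 2 untreated and 3 Dox arrays, and at 48 h 3 and 2. At 72 h there were 4 and 4, with the repeats of 1 letter averaged. The SE for Fos was 0.17 at 12 h and at 48 h, against 0.16 at 24 h. Untreated replicate 1 at 12 h lies in the set of the 6 h arrays, apart from the other 12 h arrays. The part of group size and sets in these counts was not tested.

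The difference between the effects of 2 times was then tested itself. Against 12 h it passed for 2 genes (0.0242%), Fhl1 and Zfp956 (637 genes had an unadjusted p under 0.05), and against 48 h for 1 (0.0121%), Igfbp2 (698 unadjusted). Fhl1 was -0.04 at 12 h (adjusted p = 0.934) and -1.13 at 24 h. Igfbp2, which binds insulin-like growth factors, was -0.32 at 24 h, where it was not called, and -1.26 at 48 h. Against 72 h the difference between effects passed for 115 genes (1.39% of those measured), of which 40 were called at 24 h and 79 at 72 h. With the array set as a block the 3 counts were 0, 0 and 27, and without untreated replicate 1 they were 3, 0 and 67.

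For 13 of the genes called at 24 h the effect was larger at 72 h, past that test and in the same direction, 2 of them higher and 11 lower with Dox. Tgfbi went from 1.41 at 24 h to 2.38 at 72 h, and Mgst3 from 0.72 to 1.53. Among the lower genes Fhl1 went from -1.13 to -2.03, Krt42 from -0.97 to -2.33 and Ccn2 from -0.94 to -2.06. The others were Acta2, Ankk1, Cxcl1, Cxcl12, Edn2, Nppb, Timp3 and Tnc, named by that class. The 24 h value of Ankk1 was -0.71, and -0.66 within the array set (adjusted p = 0.0274). The untreated arrays of Fhl1 lay between 7.81 and 7.87 at 6 h and between 9.40 and 9.59 at 72 h, and its Dox arrays between 7.65 and 7.86 and between 7.31 and 7.58.

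Mmp10 was not in that class. Beside 2.03 at 24 h, its effect was 0.35 at the first time (6 h), 1.05 at 12 h, then 2.09 at 48 h and 1.95 by 72 h. The 24 h and 12 h effects differed by 0.97 (SE 0.22), short of the test's threshold (adjusted p = 0.192). The 24 h and 72 h effects differed by 0.07 (SE 0.21, adjusted p = 0.927), which does not show that they were equal. Its untreated arrays lay between 9.26 and 9.39 at 6 h and between 5.42 and 5.75 at 72 h, and its Dox arrays between 9.55 and 9.79 and between 7.38 and 7.81, so its level was lower at the later time in both treatments.

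**Figure D4:**
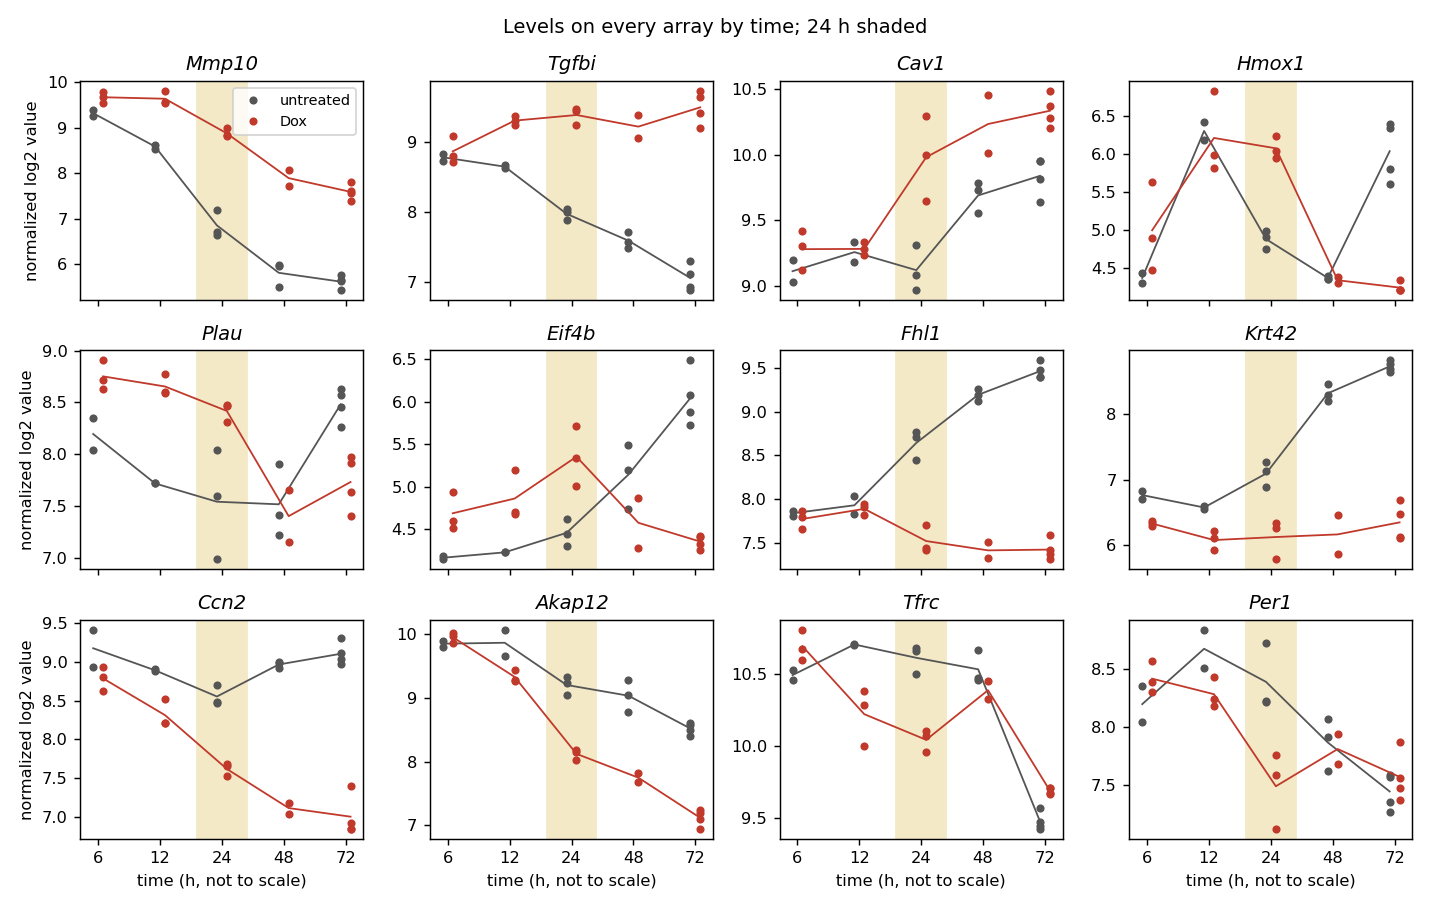
Normalized log2 values (vertical) of 12 genes on every array at 6, 12, 24, 48 and 72 h (horizontal, not to scale), with lines through the group means, untreated in grey and Dox in red, and 24 h shaded. For Hmox1 the Dox mean is above the untreated mean by 1.19 at 24 h and below it by 1.91 at 72 h.

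Of the 239 called genes 58 had the other sign at 72 h. For 25 of them the difference between the times also passed the test, 10 that were higher and 15 that were lower at 24 h. Of these 8 were called in opposite directions at the 2 times. Hmox1 was 1.19 higher at 24 h, -0.03 at 48 h and -1.91 at 72 h, a difference between effects of -3.10 (SE 0.32, adjusted p = 2.57e-06). Eif4b, a translation initiation factor, was undetected on the untreated 24 h arrays and at least 1.48-fold higher with Dox, and was -1.63 at 72 h (adjusted p = 1.41e-06). Its 24 h call ended without untreated replicate 1 (adjusted p = 0.0581) or Dox replicate 3 (adjusted p = 0.0849). Plau was 0.88 at 24 h and -0.86 at 72 h, and Clec2g 0.49 and -0.47.

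The 4 that were lower at 24 h and higher at 72 h were Prrc2a (-0.81 and 0.55), Klf16 (-0.73 and 0.61), Brd2 (-0.49 and 0.51) and Atg9b (-0.51 and 0.64). Brd2 reads acetylated histones and Klf16 is a zinc finger transcription factor. Leaving out 1 array ended the 24 h call for Prrc2a, Klf16, Brd2, Atg9b, Plau and Clec2g (adjusted p up to 0.0706, 0.0696, 0.0644, 0.172, 0.133 and 0.220), and for Hmox1 it did not (adjusted p up to 0.0216). The 24 h groups cross array sets, while the 72 h arrays form a set of their own.

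**Figure D5:**
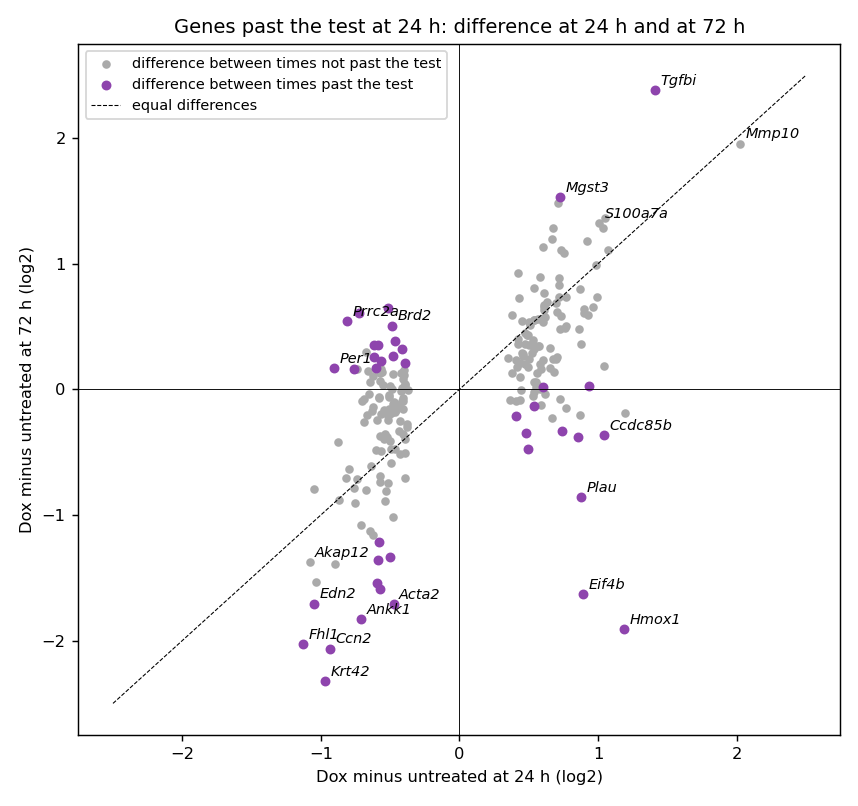
Difference between Dox and untreated arrays at 72 h (vertical) against that at 24 h (horizontal), both log2, for the 239 genes called at 24 h. Purple points are genes whose effects at the 2 times differed past the test, grey points the others, and the dashed line marks equal effects. Hmox1 and Eif4b lie at the lower right, at -1.91 and -1.63 at 72 h, and Tgfbi at the upper right, at 2.38.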

How the data were processed

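Total RNA was measured on 29 Illumina arrays of 25697 probes, of which 6 form the 24 h comparison. The authors deposited intensity values that are not normalized, per the file headers. Each has a detection p-value, which the authors deposited with it. A further table holds log2 values that the authors deposited after a normalization not given in the sources used here. Array sets were read from these log2 values.

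Signals were background corrected and quantile normalized with neqc (limma 3.58.1, R 4.3.3, offset 16). Probes with a detection p under 0.01 on at least 2 arrays were kept, 11794 of 25697. Each of 8271 genes was counted by its brightest kept probe, and 2066 had several. A single limma fit of 10 group means on 27 replicates, the repeats of 1 letter at 72 h averaged, had 17 residual degrees of freedom, to which eBayes added 8.19 prior ones. Benjamini-Hochberg adjustment ran over all kept probes, and the threshold was 0.05. Differences between times were contrasts in the same fit. Where no array of a treatment detected a gene, its fold is a bound set by the detection limit.

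The members, the gene lists, the rule for naming genes and the tests were chosen with earlier results of these data known. The rule names Fos, Mmp10 and S100a7a, the 15 largest rises and falls without overlap, up to 4 called genes of each list (or the 2 nearest to a call), up to 6 genes of each comparison between times, and the 6 largest each way with the array set as a block. Replicate numbers were not used to pair arrays. Deviations of same-numbered arrays correlated at 0.05, -0.00 and 0.03. These values cannot show that same-numbered arrays were unrelated, since the Dox arrays cross array sets and the untreated arrays do not. On simulated arrays the procedure recovered 61% of 100 changes of 0.5 and 99% of 100 changes of 1 (log2) for this comparison over 11794 probes. Of its calls there 4.76% were false, and this share is not carried over to the genes called on the real arrays. Promoter windows came from RefSeq, build GRCm38.p6. Probe sequences and proteins were not used here.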

Additional observations from a re-analysis of the deposited data

Results flagged for a closer look

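The effect of Dox differed between times for some named genes by the test of the difference itself, given here as the later minus the earlier effect on the log2 scale. From 12 h to 24 h it moved by -1.08 for Fhl1 and by -0.92 for Zfp956, and from 24 h to 48 h by -0.94 for Igfbp2. From 24 h to 72 h the largest movements among named genes were -3.10 for Hmox1, -2.52 for Eif4b, -2.11 for Igfbp2 and -1.74 for Plau.

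Pmaip1, which promotes cell death, and Slc35e3 were not called at 24 h, were lower at 72 h, and moved by -1.61 and -1.30. Genes called lower at 24 h that were further down at 72 h moved by -1.36 (Krt42), -1.24 (Acta2), -1.13 (Ccn2), -1.12 (Ankk1), -0.94 (Timp3), -0.90 (Fhl1), -0.84 (Cxcl1), -0.77 (Cxcl12), -0.66 (Edn2) and -0.63 (Tnc). Genes called higher at 24 h and not called at 72 h moved by -1.41 (Ccdc85b), -0.91 (Ifi202b), -0.83 (Sema4b) and -0.67 (Tnfsf9). The 24 h value of Ccdc85b was 1.04, and 1.21 within the array set. Upward movements were 1.35 (Prrc2a), 1.14 (Jag2), 1.07 (Per1), 0.97 (Tgfbi), 0.80 (Mgst3) and 0.79 (Tfrc). The 24 h arrays cross array sets and the 72 h arrays do not, and with the set as a fixed block 27 differences between 24 h and 72 h passed in place of 115. The part of the set was not otherwise tested. Groups of 3 arrays are too small for a test of single arrays.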

How the results depend on the processing

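The number of genes called at 24 h was 239. It was 387 with median scaling, 1126 with the authors' normalized values, 84 with those values and the array set as a fixed block (chosen after seeing the data), 88 with the 24 h arrays alone, 40 when only differences above 0.26 counted and 40 with the array set as a fixed block. It was 312 without background correction, 177 with the set as a random block, and leaving out 1 array at a time gave 110 to 270. The comparison with 12 h, with 2 genes, gave 4 without background correction, 1 with median scaling, 4 with cyclic loess, 1985 with the authors' values, 5 without the detection filter, 0 above 0.26, 1 with array weights, 0 and 1 with the set as a fixed and a random block, 0 with the Actb probe difference as a covariate, and 1 to 3 leaving out 1 array. The comparison with 48 h, with 1 gene, gave 2 without background correction, 3 with median scaling, 0 with the authors' values with or without the set block, 4 without the detection filter, 0 with detection on all 3 arrays of a group, 0 above 0.26, 0 with the set as either block, and 0 to 8 leaving out 1 array. The comparison with 72 h, with 115 genes, gave 218 with the authors' values, 26 above 0.26, 186 with array weights, 27 with the set as a fixed block, 192 with the Actb covariate, and 66 to 135 leaving out 1 array. The replicate block groups arrays by the letter A, B or C of their label, and what the letter stands for is not stated. It gave 236 genes at 24 h, 212 of them among the 239. For the comparisons with 12, 48 and 72 h it gave 1, 1 and 114. Of the 1985 genes in the comparison with 12 h by the authors' values, the 24 h effect was higher for 18 and lower for 1967. The median difference of all genes was -0.148 there, and -0.005 with the array set as a fixed block in those values. For 99 named genes 1685 of 2075 alternatives kept direction and side of the threshold and 7 reversed: Elf3 (-0.27), Egfr (0.028) and Srsf10 (0.29) with the probe of highest spread, Cdkn1a (-0.053) and Igfbp2 (0.011) with the authors' values, and Ifit3 with the set as a fixed block in these values (-0.036) and in the normalized signals (-0.10). Of 178 alternatives for differences between times 153 did. The cause was not tested, except that some settings are stricter or smaller by construction. These are the settings above 0.26, with 24 h alone, with fewer arrays and with the set as a fixed block. That block leaves 1 Dox array at 24 h. Signals near background limit low genes: 9 called genes were undetected on all untreated arrays and 16 on all Dox arrays.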

Other observations

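Some genes outside the naming rule were called with all arrays and in each fit that left out 1 of them. They are given here as values and were chosen after their values were seen. Wnt7b, a Wnt ligand of the epidermis, read 6.79, 6.88 and 6.88 untreated and 7.64, 7.71 and 7.47 with Dox, a difference of 0.76 (SE 0.11, limma adjusted p = 0.000121). Odc1, the enzyme that starts polyamine synthesis, read 10.95, 10.97 and 11.07 untreated and 11.55, 11.52 and 11.72 with Dox, which is 0.60 higher (SE 0.10, adjusted p = 0.000561). The proliferin genes Prl2c3 and Prl2c4 were 0.63 and 0.61 higher, and since they are near copies their probes may share signal. Map2k3, a kinase that activates p38, was 0.56 higher (SE 0.11, adjusted p = 0.00275), and Cd109, a coreceptor that restrains TGF-beta signalling, 0.61 higher (SE 0.12, adjusted p = 0.00293).

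Among lower genes of this kind were Igsf9, a membrane protein of the immunoglobulin family, at -0.75 (SE 0.10, adjusted p = 3.30e-05), and Ptprk, a receptor tyrosine phosphatase of cell contacts, at -0.57 (SE 0.11, adjusted p = 0.00270). Dapk2, a kinase that promotes cell death, was at -0.62 (SE 0.12, adjusted p = 0.00302), and Lpar6, a lysophosphatidic acid receptor of hair follicles, at -0.51 (SE 0.10, adjusted p = 0.00287). The groups did not overlap in any of the genes named here, as in 21.3% of all measured genes. With the array set as a fixed block 1 of the 10, Wnt7b, was called (adjusted p = 0.0129), and with the authors' normalized values 5 were.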
